A study of Homo sapiens with 12 samples.

Results

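Keratins of type I and type II, the proteins that pair to build the intermediate filaments of epithelial cells, were followed through RNA-seq of lung squamous cell carcinoma cells with and without maspin, the serpin encoded by SERPINB5. All rows of the deposited count tables whose symbol is KRT, a number and at most 1 further letter were taken. Of the 57 such rows, 2 were pseudogenes (KRT42P and KRT87P) and were left out, and the remaining 55 keratins, 29 of type I and 26 of type II, were described among 38434 named genes. The members were taken by name, and keratin-associated proteins were not counted among them. Keratins as a topic were chosen with earlier results of these data known.

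The cells were the human lung squamous cell carcinoma lines LK-2, kept in RPMI1640, and RERF-LC-AI, kept in Eagle's minimum essential medium. Control cells of each line (LK2-ctrl and LC-AI-ctrl) carried a lentiviral vector for the fluorescent protein ZsGreen, and maspin cells (LK2-maspin and LC-AI-maspin) carried one for maspin and ZsGreen. Both kinds had been selected with blasticidin, so that all 4 groups shared transduction, ZsGreen and selection, and each group was a pool of surviving clones. Each group had 3 libraries. As the groups were pools, an effect of maspin and a difference between pools cannot be told apart in the comparisons below. SERPINB5 was at 1.90, 1.89 and 1.70 CPM (counts scaled to a common library total) in LK2-ctrl and at 47.2, 47.4 and 44.8 CPM in LK2-maspin. It was at 0.291, 0.154 and 0.216 CPM in LC-AI-ctrl and at 551, 516 and 470 CPM in LC-AI-maspin, so the targeted gene followed the labels in all 12 libraries.

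Keratin filaments are obligate copolymers of a type I and a type II chain, and a cell's pairing of chains follows its kind of epithelium. KRT8 and KRT18 are the first pair of simple epithelia, joined there by KRT7, KRT19 and KRT20. KRT5 and KRT14, with KRT15, belong to the basal layer of stratified and squamous epithelia, KRT1 and KRT10 to the layers above it, and KRT6, KRT16 and KRT17 to activated or wounded epithelium. The hair keratins, rich in cysteine, build the hair shaft, and a further set is expressed in the root sheath of the follicle. In lung pathology KRT5 is a marker of squamous and KRT7 of glandular differentiation. By these roles the 55 members fell into 5 simple, 3 basal, 14 suprabasal and stress, 17 hair, 9 root sheath and 7 other epithelial keratins. The type II genes lie in a cluster on chromosome 12 and the type I genes on chromosome 17, except KRT18, which lies beside KRT8 on chromosome 12.

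The sequences before the transcription start of 4 keratins are shown because these are the basal and hair keratins that passed the test against control cells in one of the lines. They are the 250 bases upstream of the start, from RefSeq on GRCh38.p14, all on the minus strand and written 5′ to 3′. Capitals mark a TATA box (TATAAA) or the letters CTTTGAA, a motif bound by LEF1, a transcription factor of the hair follicle. Both strands were searched, and the 2 motifs share no bases in these windows.
KRT5, chr12:52520395-52520644: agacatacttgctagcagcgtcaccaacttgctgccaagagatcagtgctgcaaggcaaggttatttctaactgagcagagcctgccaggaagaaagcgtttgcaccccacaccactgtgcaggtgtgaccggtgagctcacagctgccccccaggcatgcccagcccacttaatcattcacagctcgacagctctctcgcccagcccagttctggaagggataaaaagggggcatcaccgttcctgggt
KRT31, chr17:41397609-41397858: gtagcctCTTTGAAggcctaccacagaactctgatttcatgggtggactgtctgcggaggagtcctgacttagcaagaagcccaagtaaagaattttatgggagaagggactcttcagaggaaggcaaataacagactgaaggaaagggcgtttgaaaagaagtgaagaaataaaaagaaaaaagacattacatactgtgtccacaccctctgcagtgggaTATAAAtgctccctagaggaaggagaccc
KRT32, chr17:41467387-41467636: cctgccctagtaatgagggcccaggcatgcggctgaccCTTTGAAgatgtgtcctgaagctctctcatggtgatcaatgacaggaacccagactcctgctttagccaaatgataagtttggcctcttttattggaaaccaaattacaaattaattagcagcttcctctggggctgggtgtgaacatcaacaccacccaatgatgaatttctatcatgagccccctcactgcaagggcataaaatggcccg
KRT34, chr17:41382307-41382556: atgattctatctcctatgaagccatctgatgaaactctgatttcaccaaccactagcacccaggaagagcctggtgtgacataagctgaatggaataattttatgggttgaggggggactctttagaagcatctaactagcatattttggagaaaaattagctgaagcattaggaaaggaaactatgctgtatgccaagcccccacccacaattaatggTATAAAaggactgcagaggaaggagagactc
Of the 55 members, 34 had an upstream sequence in the table used. The entries of KRT8 and KRT40 lie 21393 and 2675 bases from the start of the MANE transcript and held none of the motifs searched. CTTTGAA was found in 8 of these 34, all of them among the 14 hair keratins, against 3.80% of the upstream windows of all 35116 genes in the table. TATAAA was found in 20 of the 34, of which 10 were hair and 6 were root sheath keratins, against 10.7% of all windows. The AP-1 motif TGACTCA was in 0 of the 34 and in 4.20% of all windows, and the SP1 motif GGGCGG was in 4 of the 34 and in 42.6% of all windows. KRT5 held none of the 4 motifs, KRT31 held CTTTGAA and TATAAA, KRT32 CTTTGAA and KRT34 TATAAA. A match of letters describes the window only, and many of these genes arose by duplication next to each other, so their windows are not independent.

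The totals over named genes ran from 39802246 to 54941357 counts in the LK-2 libraries and from 50143577 to 65454432 in the RERF-LC-AI libraries, and 32317 to 33376 genes had a count. Of the further lineage markers checked, the squamous factor TP63 was low in both lines, with means of 1.18 ± 0.420 CPM (SD, n = 3 libraries, as for all ± values of levels) in LK2-ctrl and 0.641 ± 0.290 in LC-AI-ctrl. SOX2, another squamous lineage factor, was at 500.1 ± 28.4 CPM in LK2-ctrl and 0.39 ± 0.244 in LC-AI-ctrl. Of the other squamous markers listed, KRT5, KRT14 and KRT6A were under 2 CPM in the control cells of both lines. The desmosomal genes DSG3 and PKP1 were at 4.71 ± 0.623 and 0.319 ± 0.0663 CPM in LK2-ctrl and at 1.65 ± 0.296 and 8.98 ± 0.465 CPM in LC-AI-ctrl. The summed levels of 3 immune markers (at most 1.64 CPM in any library) and 3 endothelial markers (at most 6.49 CPM) were low throughout. That of 5 fibroblast markers was between 18.5 and 32.7 CPM in LK-2, between 32.9 and 49.5 CPM in LC-AI-ctrl and between 23.4 and 26.1 CPM in LC-AI-maspin. Most of it in RERF-LC-AI was COL1A2, a collagen chain, which fell from 31.9 ± 8.35 to 16.4 ± 1.34 CPM (adjusted p = 2.64e-07), while DCN and LUM were below 1 CPM in both groups, and its part in the lower simple keratins of LC-AI-maspin was not tested. The sum of 5 lung adenocarcinoma markers was mostly KRT7 in RERF-LC-AI (169.7 to 245.6 CPM) and at most 8.06 CPM in LK-2, and that of 5 neuroendocrine markers was 25.3 to 33.5 CPM in LK-2 and 4.64 to 5.95 CPM in RERF-LC-AI. Nothing in the sources used here says whether the 3 libraries of a group came from separate cultures, so p-values measure the spread between these libraries, which may be technical.

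Simple keratins made up most keratin RNA in every library. Their summed level was 1087 ± 28.3 CPM in LK2-ctrl, 1283 ± 25.3 in LK2-maspin, 2408 ± 84.7 in LC-AI-ctrl and 1761 ± 61.3 in LC-AI-maspin, or 95.02% ± 0.173, 92.3% ± 0.911, 93.2% ± 0.379 and 92.1% ± 0.471 of the summed keratin level. Per kilobase of the MANE transcript, KRT8 led all 4 groups, at 340.0 ± 16.0 CPM per kb in LK2-ctrl and 812 ± 29.5 in LC-AI-ctrl. KRT18, its partner, followed at 217 ± 6.08 and 426 ± 12.5 CPM per kb. The level of KRT8 per kilobase was 1.57 ± 0.115 times that of KRT18 in LK2-ctrl and 1.63 ± 0.0518 times in LK2-maspin, 1.91 ± 0.0610 times in LC-AI-ctrl and 1.84 ± 0.0493 times in LC-AI-maspin. The next rank was held by KRT19 in LK-2 (125 ± 6.4 CPM per kb in LK2-ctrl) and by KRT7 in RERF-LC-AI (143 ± 7.85 CPM per kb in LC-AI-ctrl).

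**Figure D1:**
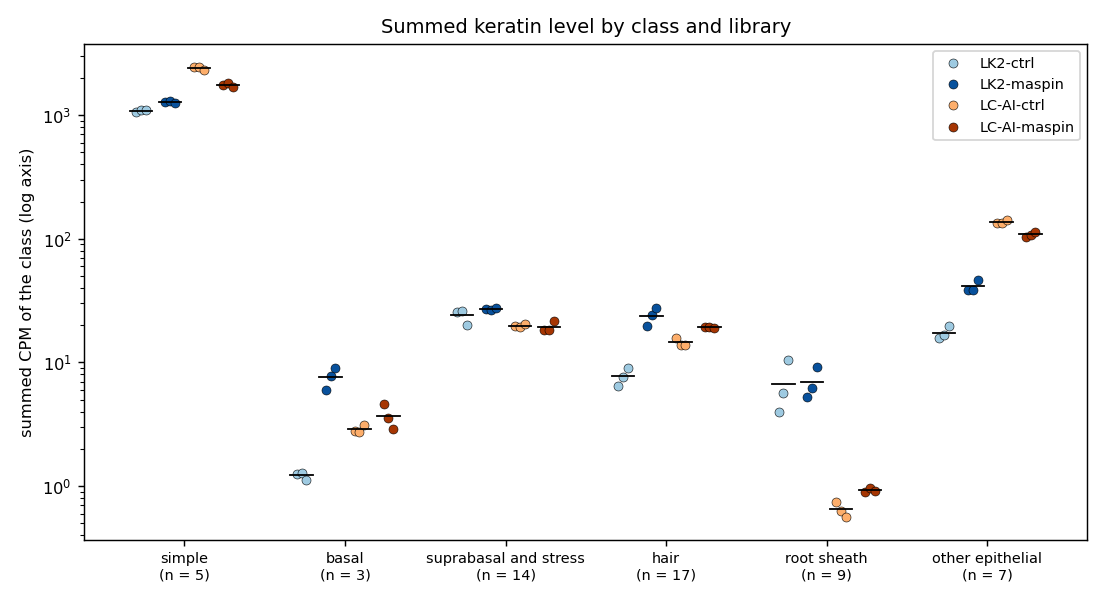
Summed level (CPM, log axis) of each keratin class in each of the 12 libraries, with n the number of keratins in the class, points for libraries and bars for group means. Simple keratins lay above all other classes in every library, the lowest at 1055 CPM, and the basal sum rose from at most 1.28 CPM in LK2-ctrl to at least 6.04 CPM in LK2-maspin.

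Below the simple keratins the lines held different members. In LK2-ctrl the order per kilobase went on with KRT10 (9.14 ± 1.24 CPM per kb), a suprabasal keratin, KRT23 (7.05 ± 0.968), an epithelial type I keratin, KRT74 of the root sheath and KRT31 of the hair shaft. The libraries of KRT10 and KRT23 overlapped, as did those of KRT74 and KRT31, so neither pair can be ordered. In LC-AI-ctrl it went on with KRT19, KRT80 (35.1 ± 1.0 CPM per kb), an epithelial keratin of cell margins, KRT10, KRT34 of the hair shaft and KRT15, with no overlap between neighbours. In LK2-maspin KRT23 and KRT31 stood at rank 4 and 5, ahead of KRT10, although the libraries of KRT31 and KRT10 overlapped. Summed per kilobase, type II and type I keratins were nearly equal in LK-2, with a ratio of 0.954 ± 0.0443 in LK2-ctrl and 0.960 ± 0.0299 in LK2-maspin, whereas type II exceeded type I in RERF-LC-AI, by 1.86 ± 0.0758 in LC-AI-ctrl and 1.75 ± 0.0727 in LC-AI-maspin. Most members were scarce. The mean was below 1 CPM for 43 of 55 keratins in LK2-ctrl, 42 in LK2-maspin, 45 in LC-AI-ctrl and 45 in LC-AI-maspin.

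In LK-2 cells, the question was which keratins differed between the maspin and the control pool. By edgeR's quasi-likelihood test with Benjamini-Hochberg adjustment over all genes, 4 keratins were higher in LK2-maspin than in LK2-ctrl at an adjusted p under 0.05, namely KRT5, KRT31, KRT23 and KRT32. Of all 26270 genes tested, 0.533% passed, 0.373% as higher and 0.160% as lower. Of the 55 keratins, 29 had enough counts to be tested. None was lower at that threshold, nor at an unadjusted p under 0.05, by the likelihood ratio test or by DESeq2, which gave 0 each.

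KRT5, the type II keratin of basal and squamous cells, was at 0.948, 0.625 and 0.607 CPM in LK2-ctrl and at 5.21, 7.14 and 8.40 CPM in LK2-maspin. All maspin libraries lay above all control libraries, by 9.52-fold on average (log2 fold change 3.25 ± 0.23 SE, adjusted p = 4.65e-05). As for all log2 fold changes here, this SE was derived from the test's F statistic and not estimated separately. These values rested on 48, 36 and 30 counts in control and 301, 301 and 423 in maspin libraries. Its basal partner KRT14 was hardly detected, with 0, 4 and 2 counts in LK2-ctrl and 0 in each LK2-maspin library. The latter allows up to 3 fragments over the 3 libraries, or 6 counts where both reads of a pair were counted, so no difference could be seen at this depth. KRT15, the other basal type I keratin, was at 0.316, 0.590 and 0.465 CPM in control and 0.830, 0.569 and 0.635 CPM in maspin cells. Its groups overlapped (log2 fold change 0.57 ± 0.34, adjusted p = 0.910).

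KRT31, a type I hair keratin, was at 2.31, 2.79 and 3.20 CPM in LK2-ctrl and at 13.4, 16.3 and 18.6 CPM in LK2-maspin. The groups did not overlap, and the maspin level was 5.81-fold higher (log2 fold change 2.54 ± 0.16, adjusted p = 2.04e-05). KRT32, the hair keratin of the cuticle, was at 1.26, 1.46 and 1.13 CPM in control and 2.34, 3.01 and 4.25 CPM in maspin cells. It too had no overlap (log2 fold change 1.31 ± 0.23, adjusted p = 0.0265). The call of KRT32 was lost when LK2-ctrl replicate 1 (adjusted p = 0.0819), 2 (0.128) or 3 (0.0502) or LK2-maspin replicate 2 (0.122) or 3 (0.101) was left out, with log2 fold changes between 1.05 and 1.41. Of the 17 hair keratins, 9 were tested and 2 passed. KRT35, a hair keratin of the matrix and cortex, was at 0.316, 0.607 and 0.789 CPM in control and 1.19, 1.68 and 1.25 CPM in maspin cells, without passing (log2 fold change 1.26 ± 0.32, adjusted p = 0.206), though it did by the likelihood ratio test (0.0160) and DESeq2 (0.0311). KRT34 was hardly present in LK-2, with 2, 4 and 10 counts in control and 2, 4 and 8 in maspin libraries. Of the 9 hair keratins tested, 5 had a positive and 4 a negative log2 fold change. The median was 0.88, against -0.0010 for all genes tested, and was the value of KRT36, which did not pass (adjusted p = 0.861).

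KRT23 was at 13.9, 14.9 and 18 CPM in LK2-ctrl and at 36.2, 36.3 and 44.6 CPM in LK2-maspin. Every maspin library was above every control library, by 2.51-fold on average (log2 fold change 1.33 ± 0.12, adjusted p = 0.000274). Among the 14 suprabasal and stress keratins, 7 were tested and 0 passed the adjusted threshold, 3 having an unadjusted p under 0.05, all higher. One of these, KRT6A, was at 1.30, 1.60 and 0.890 CPM in control and at 2.25, 2.92 and 2.24 CPM in maspin cells, with no overlap (log2 fold change 0.96 ± 0.23, adjusted p = 0.138, and 0.00890 by the likelihood ratio test and 0.0174 by DESeq2). KRT6B had 0, 14 and 9 counts in control and 45, 30 and 56 in maspin libraries (log2 fold change 2.57 ± 0.61, adjusted p = 0.146, 0.000273 by the likelihood ratio test and 0.0392 without the filter). Reads of these KRT6 genes may be shared, since 18.2% of the 100-base windows of KRT6A and 24.4% of those of KRT6B also occurred in another gene's transcript. KRT10 was at 20.9, 21.4 and 16.5 CPM in control and 20.5, 20.7 and 21.1 CPM in maspin cells, where the groups overlapped and the log2 fold change was 0.09 (95% interval -0.10 to 0.27).

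The abundant simple keratins KRT8, KRT18 and KRT19 were above control in every LK2-maspin library, without passing the test. KRT8 was at 574, 617 and 628 CPM in control and 713, 752 and 724 CPM in maspin cells. KRT18 was at 314, 306 and 297 CPM in control and 360.4, 361 and 345 CPM in maspin cells, and KRT19 at 165, 172 and 183 CPM against 203, 197 and 192 CPM. For all 3 genes the libraries of the 2 groups did not overlap, but the share of all genes without overlap was not counted. The log2 fold changes were 0.27 ± 0.06 for KRT8 (adjusted p = 0.110), 0.22 ± 0.05 for KRT18 (0.159) and 0.19 ± 0.06 for KRT19 (0.499), so none of them passed. KRT20, the fourth simple keratin tested, was at 1.07, 0.694 and 0.870 CPM in control and 0.899, 0.616 and 0.397 CPM in maspin cells, where the groups overlapped (log2 fold change -0.44 ± 0.33, adjusted p = 0.977). The genes of KRT8 and KRT18 overlap by 1006 bases and 7.12% of the 100-base windows of KRT8 also occurred in transcripts of other genes, mostly its pseudogenes, so a part of its counts may be shared.

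These calls depended on whether equally numbered libraries were treated as pairs. Libraries with the same number deviated together within each line, but the second pair of LK-2 only weakly. Its correlation was 0.113, against 0.180 for LK2-maspin replicate 1 with LK2-ctrl replicate 2, so its pairing is uncertain. With the replicate number as a block, 10 keratins in place of 4 were higher and 0 were lower in LK2-maspin, where 2.64% of all genes tested were called higher and 1.89% lower. The 6 added were KRT8 (adjusted p = 5.75e-10), KRT18 (1.60e-06), KRT19 (0.000393), KRT6A (0.000473), KRT6B (3.51e-05) and KRT35 (0.00145). KRT5, KRT31, KRT23 and KRT32 passed in this fit too, and the fold changes stayed close to those without the block (KRT8 0.27, KRT18 0.22, KRT19 0.19 on the log2 scale). Without the block, 8 keratins were higher by the likelihood ratio test (0.837% of all genes tested higher and 0.358% lower) and 7 by DESeq2 (0.998% and 0.428%). KRT8 passed by the likelihood ratio test (adjusted p = 0.0477), by DESeq2 (0.0253) and without LK2-ctrl replicate 3 (0.0148).

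**Figure D2:**
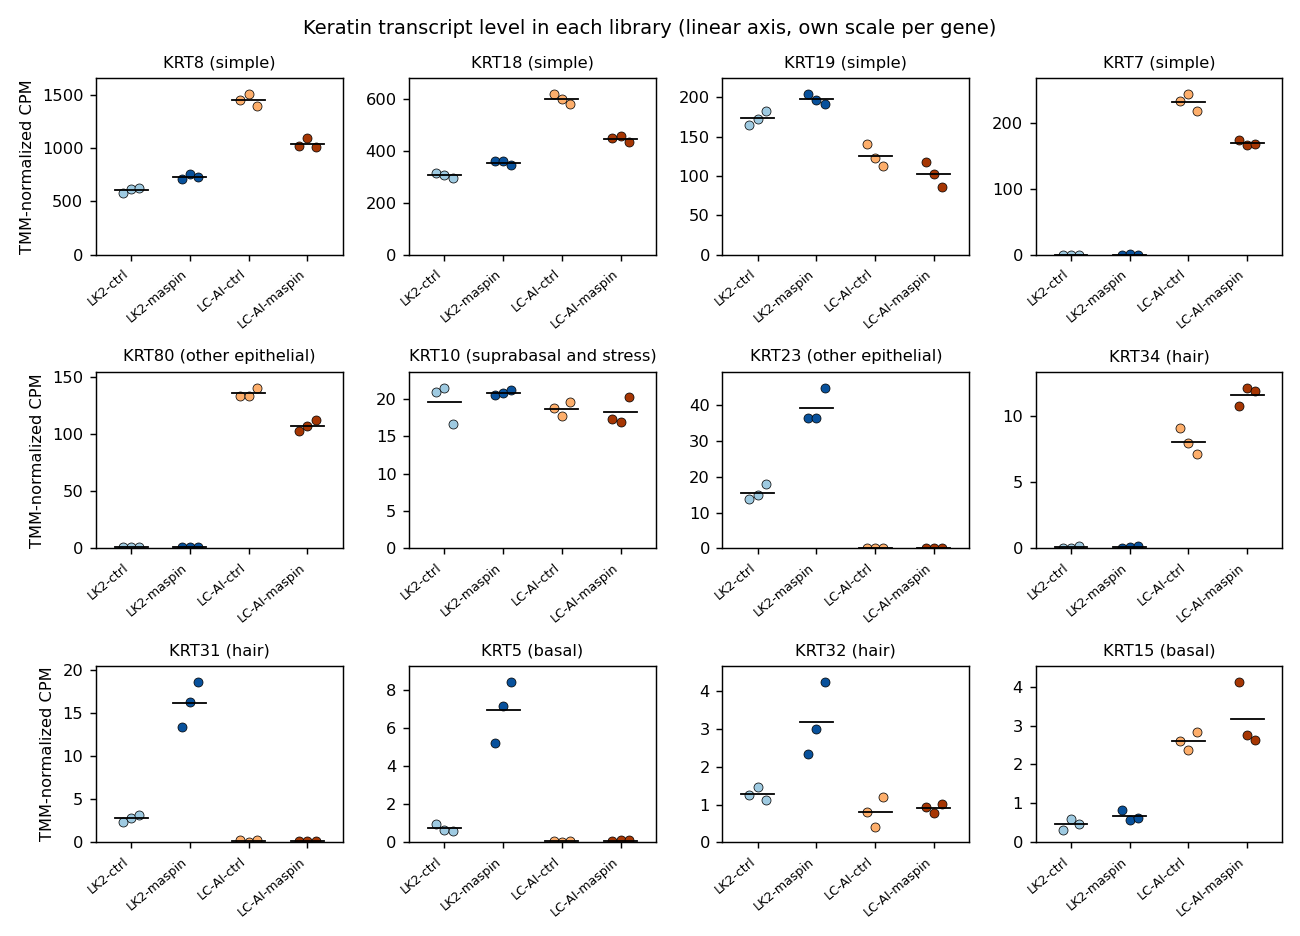
TMM-normalized CPM of 12 keratins in each library (points, linear axis with its own scale per gene), with bars for the mean of 3 libraries. KRT5, KRT31, KRT23 and KRT32 rose in LK2-maspin, while KRT8, KRT18, KRT7 and KRT80 were lower in LC-AI-maspin than in LC-AI-ctrl.

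In RERF-LC-AI cells the same comparison gave mostly lower keratins. By the same test, 5 keratins were lower in LC-AI-maspin (KRT8, KRT18, KRT7, KRT80 and KRT19) and 1, KRT34, was higher, of 22 tested. Of all 25197 genes tested, 10.5% passed, 6.53% as lower and 4.01% as higher. With library size only as the scaling, 52.2% of the genes that passed were higher, against 38.0% here, but the keratin counts were the same, 1 and 5. The replicate block also gave 1 and 5, beside 6.34% of all genes higher and 9.85% lower.

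Of the 5 simple keratins, all of them tested, 4 were lower. KRT8 was at 1449, 1501 and 1396 CPM in LC-AI-ctrl and 1017, 1092 and 1011 CPM in LC-AI-maspin, and KRT18 at 619, 602 and 583 CPM against 452, 460 and 433 CPM. Neither showed overlap, and both partners fell, with log2 fold changes of -0.48 ± 0.05 for KRT8 (adjusted p = 1.79e-08) and -0.42 ± 0.05 for KRT18 (adjusted p = 1.15e-07). KRT7, the simple keratin of glandular epithelia, was at 234, 244 and 219 CPM in control and 175, 168 and 169 CPM in maspin cells. It fell to 0.736 times its control level without overlap (log2 fold change -0.44 ± 0.05, adjusted p = 1.57e-07). KRT19, a type I simple keratin that lacks the usual tail domain, was at 140.0, 123 and 113 CPM in control and 118, 102 and 85.5 CPM in maspin cells. Here the groups overlapped, although the test passed (log2 fold change -0.30 ± 0.08, adjusted p = 0.00817). The call of KRT19 was lost in DESeq2 (adjusted p = 0.181), with all 12 libraries in 1 fit (0.0778) and without LC-AI-ctrl replicate 1 (0.0528), LC-AI-maspin replicate 2 (0.0540) or 3 (0.144), the last with a log2 fold change of -0.19. KRT20, the simple keratin of intestinal epithelium, had 10, 17 and 19 counts in control and 4, 12 and 12 in maspin libraries and did not pass.

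KRT80, at the margins of differentiating epithelial cells, was at 134, 133 and 140.3 CPM in LC-AI-ctrl and 103, 108 and 112 CPM in LC-AI-maspin. The groups did not overlap (log2 fold change -0.33 ± 0.05, adjusted p = 1.34e-05). In the other direction, the hair keratin KRT34 was at 9.09, 7.96 and 7.16 CPM in control and 10.8, 12.1 and 12 CPM in maspin cells. It was 1.44-fold higher without overlap (log2 fold change 0.53 ± 0.10, adjusted p = 0.000468), a call that was lost when all 12 libraries were fitted together (adjusted p = 0.0790). It was the only one of 9 hair keratins tested to pass. Its neighbour KRT33B, also a type I hair keratin, was at 1.04, 1.25 and 1.1 CPM against 1.45, 1.68 and 1.86 CPM, without passing (log2 fold change 0.56 ± 0.21, adjusted p = 0.0997).

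Of the 4 keratins that rose in LK-2, all but KRT32 were near the detection limit in RERF-LC-AI. KRT5 had 2, 0 and 4 counts in LC-AI-ctrl and 3, 6 and 6 in LC-AI-maspin, KRT31 13, 3 and 10 against 9, 9 and 10, and KRT23 0, 2 and 0 against 5, 0 and 4. None of these 3 had enough counts to be tested in this line. KRT32 was tested, at 0.790, 0.404 and 1.21 CPM in control and 0.931, 0.774 and 1.02 CPM in maspin cells, with overlap (log2 fold change 0.19 ± 0.31, adjusted p = 0.805). KRT15, at 2.60, 2.37 and 2.82 CPM against 4.12, 2.76 and 2.63 CPM, overlapped as well (log2 fold change 0.28 ± 0.17, adjusted p = 0.395). KRT10 was at 18.7, 17.7 and 19.6 CPM against 17.3, 16.9 and 20.2 CPM, with a log2 fold change of -0.04 (95% interval -0.19 to 0.12). In bulk RNA, fewer cells expressing a keratin and less of its RNA per cell cannot be told apart.

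**Figure D3:**
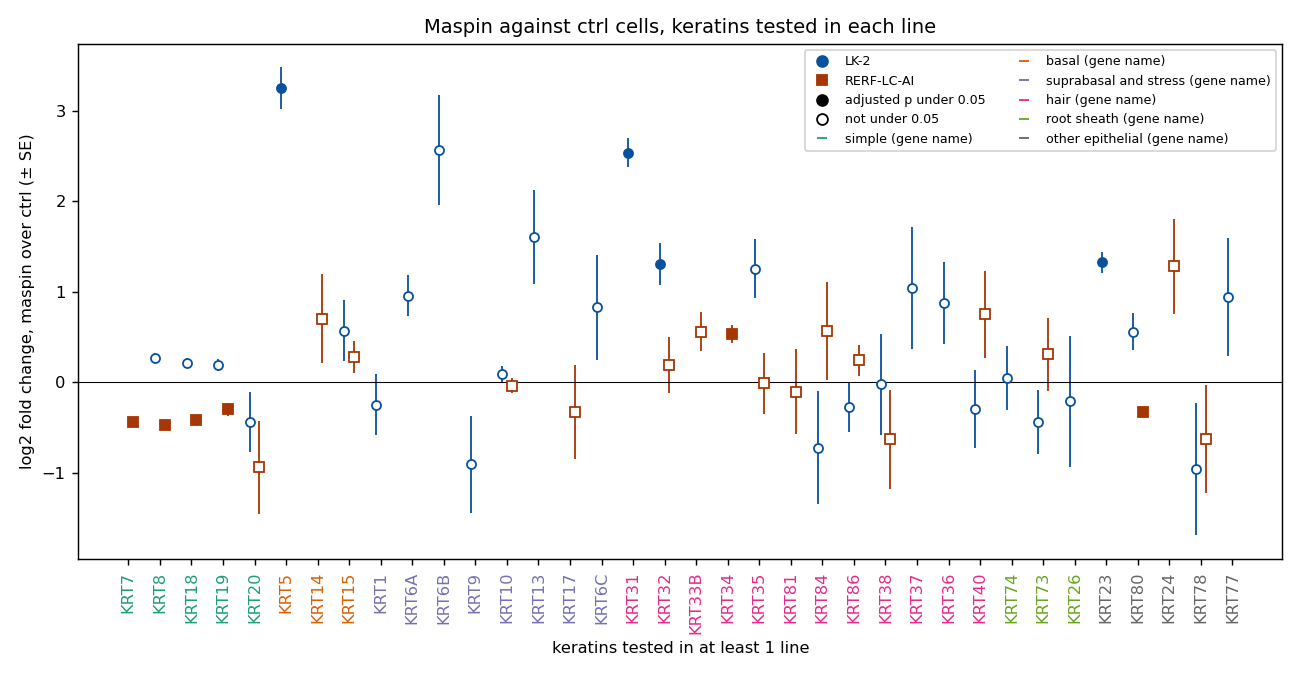
Log2 fold change, maspin over control cells (± SE), of the keratins tested in LK-2 (circles) and RERF-LC-AI (squares), filled where edgeR's adjusted p was under 0.05 and with gene names coloured by class. KRT5 and KRT31 stand at 3.25 and 2.54 in LK-2, and the abundant KRT7, KRT8, KRT18 and KRT19 lie between -0.48 and -0.30 in RERF-LC-AI.

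Whether the response to maspin differed between the lines was tested as the difference of the 2 effects, RERF-LC-AI minus LK-2, over all 12 libraries. SERPINB5 reached 44.8 to 47.4 CPM in LK2-maspin and 470 to 551 CPM in LC-AI-maspin, so its level changed along with the line. The difference of the effects passed for 4 of 39 keratins tested, all negative, where 1.76% of 28123 genes passed, 1.35% as negative and 0.402% as positive. It was -0.74 ± 0.08 for KRT8 (adjusted p = 1.93e-05) and -0.64 ± 0.07 for KRT18 (adjusted p = 6.71e-05), whose levels were lower with maspin in RERF-LC-AI and above control in LK-2. It was -0.89 ± 0.13 for KRT80 (adjusted p = 0.000943), at 0.948, 1.01 and 1.05 CPM in LK2-ctrl and 1.42, 1.56 and 1.45 CPM in LK2-maspin. Within LK-2, KRT80 did not pass (log2 fold change 0.56 ± 0.20, adjusted p = 0.573). For KRT31 it was -2.65 ± 0.50 (adjusted p = 0.00743), with few counts in RERF-LC-AI, and was lost without LC-AI-ctrl replicate 1 (adjusted p = 0.0753) or 3 (0.0569). For KRT5, with at most 6 counts in any RERF-LC-AI library, it was -2.19 ± 0.93 and did not pass (adjusted p = 0.321).

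KRT19 missed the threshold (difference -0.49 ± 0.13, adjusted p = 0.0622) and passed by the likelihood ratio test (adjusted p = 0.0203), by DESeq2 (0.00637), with RLE factors (0.0366), without the filter (0.00847), with the stricter filter (0.0472) and without LK2-ctrl replicate 3 (0.0117) or LC-AI-maspin replicate 1 (0.0177). It also passed with the replicate block (adjusted p = 7.59e-07), which gave 5 negative differences and called 5.13% of all genes tested negative and 2.95% positive. The block also gave 1 positive difference, KRT74, where no keratin was positive without it (3 were at an unadjusted p under 0.05, and 0 by the likelihood ratio test and by DESeq2). KRT74, of the inner root sheath, was at 3.02, 4.49 and 9.29 CPM in LK2-ctrl and 3.98, 5.45 and 7.96 CPM in LK2-maspin, overlapping, and had 2, 0 and 0 counts in LC-AI-ctrl and 6, 8 and 4 in LC-AI-maspin. With library size only, 33.1% of the genes with a difference were positive, against 22.9% here, and the 4 negative keratin differences remained 4 in number.

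More keratins, like a larger share of all genes tested, differed between the control cells of the lines than between maspin and control cells within a line. By the same test, 11 keratins were higher in LK2-ctrl and 9 were higher in LC-AI-ctrl, of 27 tested. These counts stand beside 63.8% of 26179 genes that passed, 32.1% as higher in LK2-ctrl and 31.6% as higher in LC-AI-ctrl. With upper-quartile factors or library size only, 61.1% and 61.2% of the genes that passed were higher in LK2-ctrl, against 50.4% here, and the median log2 difference of all genes moved from 0.10 to 0.32 under both. Line, pool of clones, culture medium and count table cannot be told apart in this comparison.

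Higher in LC-AI-ctrl were the simple keratins KRT7, KRT8 and KRT18. KRT7 had 2, 9 and 2 counts in LK2-ctrl, against 234, 244 and 219 CPM in LC-AI-ctrl (log2 difference, LK2-ctrl over LC-AI-ctrl, -11.41 ± 0.18, adjusted p = 7.06e-16). KRT8 was at 0.420 and KRT18 at 0.511 times the LC-AI-ctrl level in LK2-ctrl (log2 differences -1.25 ± 0.06, adjusted p = 2.97e-10, and -0.97 ± 0.06, adjusted p = 2.08e-09). KRT80 differed by -7.07 ± 0.10 (adjusted p = 3.04e-16). KRT34, with 2, 4 and 10 counts in LK2-ctrl, differed by -6.27 ± 0.30 (adjusted p = 1.16e-10). KRT7 and KRT34 had so few counts in LK2-ctrl that their ± values understate the counting error. The further hair keratins higher in LC-AI-ctrl were KRT33B, with 4, 0 and 0 counts in LK2-ctrl against 50, 65 and 51, and KRT86, at 0.929, 1.15 and 1.07 CPM against 2.33, 2.12 and 2.48 CPM, together with KRT81, whose gene overlaps KRT86 by 5622 bases. A part of the sequence of KRT86 is shared, as 27.6% of its 100-base windows occurred in another gene's transcript, so its counts are uncertain. The basal keratin KRT15 differed by -2.48 ± 0.25 (adjusted p = 4.56e-07).

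Higher in LK2-ctrl was KRT23, with 703, 857 and 889 counts against 0, 2 and 0 in LC-AI-ctrl. From the pooled counts the ratio was 1137, with a 95% counting interval of 204 to 44977 when each fragment is taken as 2 counts. KRT74, with 153, 259 and 459 counts against 2, 0 and 0, gave a pooled ratio of 404.5 (72.3 to 16031 on the same footing). These intervals cover counting error only. KRT31 was higher by 3.94 ± 0.34 on the log2 scale (adjusted p = 1.08e-07) and KRT5 by 4.06 ± 0.62 (adjusted p = 4.48e-05), although KRT5 was at only 0.727 ± 0.192 CPM in LK2-ctrl. KRT1, the suprabasal partner of KRT10, was at 2.33, 1.67 and 1.34 CPM in LK2-ctrl and 0.208, 0.231 and 0.173 CPM in LC-AI-ctrl (log2 difference 3.11 ± 0.32, adjusted p = 6.85e-07), and KRT6A differed by 3.70 ± 0.40 (adjusted p = 1.17e-06). KRT19 was higher by 0.47 ± 0.08 (adjusted p = 0.000141), alone among the 4 abundant simple keratins. KRT10 differed by 0.08 ± 0.10 (adjusted p = 0.525) and KRT32 by 0.70 ± 0.32 (adjusted p = 0.0724), but both passed with upper-quartile factors (adjusted p = 0.0181 and 0.0274). KRT9, KRT20, KRT36 and KRT73 were also higher, with means below 1 CPM in both lines.

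**Figure D4:**
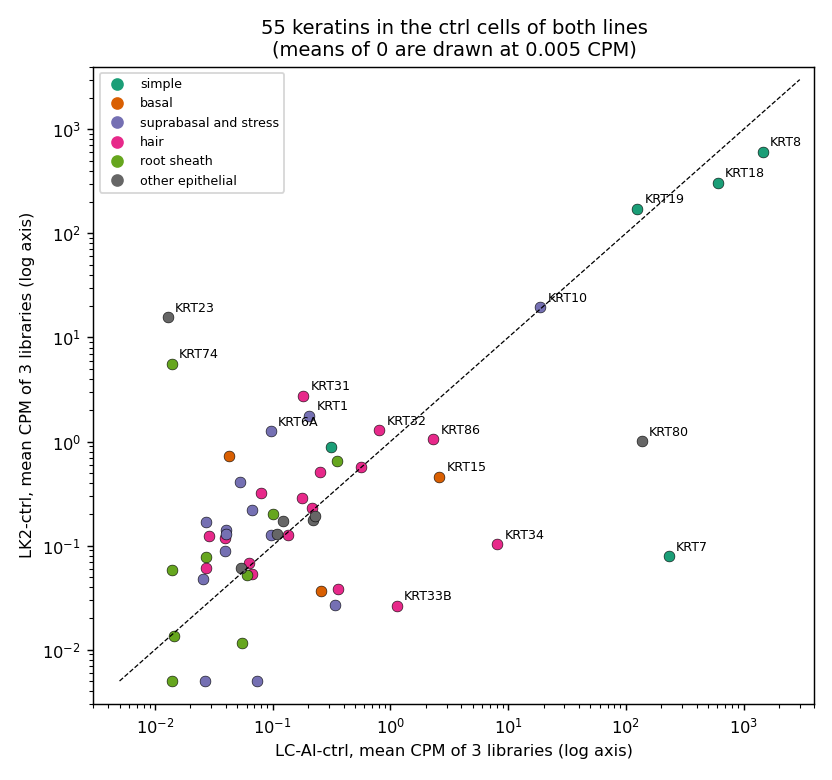
Mean CPM of each of the 55 keratins in LC-AI-ctrl (x axis) and LK2-ctrl (y axis), both log axes, with members named where either mean reached 1 CPM and the dashed line marking equal levels. KRT7, KRT80 and KRT34 lie far below the line and KRT23 and KRT74 far above it, while KRT10 lies on it.

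Other intermediate filaments, 15 genes of vimentin, neurofilament, lamin and related proteins, were lower wherever they passed in RERF-LC-AI, as were the simple keratins. In LK-2, 0 of 14 tested passed by edgeR's quasi-likelihood test, the likelihood ratio test or DESeq2, and 1 had an unadjusted p under 0.05, while the replicate block called 2 higher (LMNA, adjusted p = 0.00284, and NEFL, 0.00232). Of all genes tested, the block called 2.64% higher in LK-2. In RERF-LC-AI 5 of 13 were lower and 0 higher, among them SYNM, a filament linker (55.3 ± 1.09 to 40.1 ± 0.355 CPM, adjusted p = 3.46e-07), NES, nestin (27.1 ± 2.56 to 17.8 ± 3.12 CPM, adjusted p = 2.26e-05), INA, a neuronal filament (20.3 ± 2.31 to 12.6 ± 2.44 CPM, adjusted p = 2.37e-05), and LMNA, the nuclear lamins A and C (1260.3 ± 39.0 to 1099 ± 34.4 CPM, adjusted p = 0.00321). These counts stand beside 6.53% of all genes tested lower and 4.01% higher in this line. The median log2 fold change of the 13 was -0.31, against 0.01 for all genes tested. Vimentin, the filament of mesenchymal cells, was at 1787 ± 80.4 CPM in LC-AI-ctrl and 0.590 ± 0.0769 CPM in LK2-ctrl, so RERF-LC-AI cells held abundant VIM beside KRT8 and KRT18. With maspin in RERF-LC-AI, VIM missed the threshold (log2 fold change -0.10 ± 0.05, adjusted p = 0.222) and passed with the replicate block (adjusted p = 0.0121).

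Of 16 genes for proteins that anchor or bind keratin filaments, 0 passed in LK-2 by edgeR's quasi-likelihood test, 0 had an unadjusted p under 0.05, and 0 passed by the likelihood ratio test or DESeq2. In RERF-LC-AI 5 of the 16 were lower and 2 were higher, beside 6.53% and 4.01% of all genes tested. PKP2, a desmosomal plakophilin, fell from 28.9 ± 1.78 to 18.1 ± 0.446 CPM (adjusted p = 4.41e-08), EVPL, envoplakin, from 43.8 ± 3.54 to 28.3 ± 2.14 CPM (adjusted p = 9.63e-08) and DSP, desmoplakin, which ties keratins to desmosomes, from 51.6 ± 1.38 to 38.3 ± 5.23 CPM (adjusted p = 4.92e-05). FLG, filaggrin, a keratin-bundling protein of the epidermis, rose from 1206 ± 92.0 to 1733 ± 269 CPM (adjusted p = 4.38e-06). For PKP2, EVPL and DSP the difference between the lines also passed, at -0.54 ± 0.10 (adjusted p = 0.00619), -0.52 ± 0.11 (adjusted p = 0.0146) and -0.44 ± 0.10 (adjusted p = 0.0308). With the replicate block 6 were lower and 4 higher in RERF-LC-AI, and 4 differences between the lines were positive in place of 0 (2 at an unadjusted p under 0.05, and 0 by the likelihood ratio test and by DESeq2), beside the 4 negative ones. Of all genes tested, the block called 9.85% lower and 6.34% higher in RERF-LC-AI. It called 2.95% of the differences positive and 5.13% negative.

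Among 18 transcription factors that regulate keratin genes, 0 passed in LK-2, where 4 higher and 1 lower had an unadjusted p under 0.05 and the likelihood ratio test and DESeq2 each called 1 higher and 1 lower. The lower one was SOX2, at 530.3, 496 and 474 CPM in LK2-ctrl and 434, 376 and 383 CPM in LK2-maspin, without overlap (log2 fold change -0.33 ± 0.07, adjusted p = 0.0756, and 1.23e-12 with the replicate block). The block called 4 higher in LK-2, namely DLX3, MSX2, KLF4 and LEF1, where it called 2.64% of all genes tested higher. In RERF-LC-AI, LEF1 was the 1 of 17 to pass, at 15.1, 13.4 and 15.5 CPM in control and 17.6, 17.8 and 16.7 CPM in maspin cells (log2 fold change 0.24 ± 0.08, adjusted p = 0.0486), and the block called 2 higher and 1 lower. In LK-2 its level was 182, 194 and 179.8 CPM against 205, 236 and 228 CPM, without overlap or a call (log2 fold change 0.27 ± 0.06, adjusted p = 0.147, and 4.87e-08 with the block). Between control cells, 14 of the 18 factors were higher in LK2-ctrl by edgeR's quasi-likelihood test, where 32.1% of all genes were. None was lower by that test, against 31.6% of all genes, but 1, GATA3, was lower at an unadjusted p under 0.05, by the likelihood ratio test and by DESeq2 (log2 difference -0.36 ± 0.16, adjusted p = 0.0578 by the quasi-likelihood test, 0.0477 and 0.0339 by the others).

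Of 94 genes whose symbol starts with KRTAP, most of which encode proteins of the matrix around hair keratins and 1 of which is an antisense RNA gene (KRTAP5-AS1, tested in both lines), 7 had enough counts to be tested for LK-2 cells, 9 for RERF-LC-AI cells. In LK-2, 0 passed, with 0 at an unadjusted p under 0.05 and 0 by the likelihood ratio test or DESeq2. In RERF-LC-AI, where 4.01% of all genes tested were higher, 3 of the 9 were, all of the KRTAP2 group. KRTAP2-3 was at 43.8, 41.1 and 46.1 CPM in control and 63.6, 56.0 and 58.7 CPM in maspin cells (log2 fold change 0.45 ± 0.06, adjusted p = 3.21e-06). KRTAP2-4 was at 3.39, 3.42 and 2.74 CPM against 5.42, 4.28 and 4.97 CPM (adjusted p = 0.00396), and KRTAP2-1 at 0.707, 0.904 and 0.755 CPM against 1.43, 1.28 and 1.58 CPM (adjusted p = 0.0163). None of the 3 overlapped between groups, but the share of all genes without overlap was not counted. Sequence shared among the KRTAP2 genes was not measured, so reads may be shared and the 3 calls may not be separate. Of 16 cornified envelope genes, 3 were tested for LK-2 cells, 5 for RERF-LC-AI cells, and of 11 keratin pseudogenes 6 were tested in each. None of these passed in either line by edgeR's quasi-likelihood test, the likelihood ratio test or DESeq2, and the 1 with an unadjusted p under 0.05 was a cornified envelope gene lower in RERF-LC-AI.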

How the data were processed

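The authors sequenced strand-specific poly(A) libraries, trimmed reads with Trimmomatic 0.39, aligned them with BWA 0.7.17 to GRCh38.p13 and handled alignments with SAMtools 1.12 (LK-2) or 1.10 (RERF-LC-AI). They deposited raw read counts per gene, not normalized, in 1 table per line. None of the sources used here names the counting software. The tables also held signal values, counts that the authors had scaled to the smallest library or by TMM, and these were not used. Most counts were even (odd shares of counts from 1 to 9 were 23.7 to 26.0%), so most fragments were counted as both reads of a pair. Lines with no gene name (646 per table) held 0.292 to 0.416% of counts and were left out.

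Counts were tested with edgeR 4.0.16 (quasi-likelihood, TMM factors, filterByExpr defaults: minimum count 10, minimum total 15), each line on its own as in the study, the difference between lines over all 12 libraries, and Benjamini-Hochberg over all genes. Levels are CPM with TMM factors over 12 libraries. Overlap of groups was described for selected genes only, and the share of all genes without overlap was not counted. Alternatives were the likelihood ratio test, DESeq2 1.42.0, other scalings and filters, a replicate block and leaving out each library. Keratins and lists were chosen with earlier results of these data known. Named keratins were KRT5, KRT8, KRT18, KRT31, those that passed within a line or in the difference, those at 10 CPM or more in any group, and those that passed between control cells with a log2 difference over 1 and at least 1 CPM. From each other list, up to 4 that passed in a line were named by adjusted p. KRT6B, KRT9, KRT14, KRT20, KRT35, KRT36, KRT73 and KRT81 were named after their values were seen. So were VIM, TP63, SOX2, DSG3, PKP1, PKP3, GATA3, the regulators in LK-2, and LMNA and NEFL in LK-2.

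Equal replicate numbers were taken as pairs where deviations from group means correlated above 0.1 for every pair, among genes with mean log2 CPM over 3. Correlations were 0.744, 0.113 and 0.750 in LK-2 and 0.369, 0.390 and 0.203 in RERF-LC-AI, and over all genes tested 0.154, 0.0144 and 0.164, and 0.0437, 0.0533 and 0.00167. The pairing comes from the labels' numbers and this check only. The second LK-2 pair (0.113) lay below LK2-maspin replicate 1 with LK2-ctrl replicate 2 (0.180), whose numbers differ. Replicates of a group differed by more than counting noise (chi-square per degree of freedom 4.70 to 26.5). Gene positions came from RefSeq, and MANE transcript lengths and shared windows from GENCODE release 44.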

Additional observations from a re-analysis of the deposited data

Results flagged for a closer look

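The response to maspin differed between the lines for 4 keratins by edgeR's interaction test over 12 libraries. The effect in RERF-LC-AI minus that in LK-2 was -0.74 on the log2 scale for KRT8, -0.64 for KRT18, -0.89 for KRT80 and -2.65 for KRT31. KRT8, KRT18 and KRT80 were lower with maspin in every RERF-LC-AI library and above control in every LK-2 library. In LK-2 they did not pass by edgeR's quasi-likelihood test without the block (adjusted p = 0.110, 0.159 and 0.573). KRT31 had 3 to 13 counts per library in RERF-LC-AI, so its difference rested on its rise in LK-2. SERPINB5 was at 44.8 to 47.4 CPM in LK2-maspin and at 470 to 551 CPM in LC-AI-maspin. The line, its pools of clones, its medium, its count table and the level of SERPINB5 reached cannot be told apart in this difference.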

How the results depend on the processing

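In LK-2, 8 keratins were higher by the likelihood ratio test, 7 by DESeq2 and 10 with the replicate block, in place of 4. The higher call in RERF-LC-AI became 0 with all 12 libraries in 1 fit, the block left 1 higher and 5 lower there, and it gave 1 positive difference between the lines in place of 0. The block changed no other keratin count by over 1.5 times. Between control cells, requiring 10 counts in every library left 4 higher and 5 lower in place of 11 and 9, since fewer keratins were tested. Equally numbered control libraries of the lines were not pairs (correlations -0.240, 0.203 and 0.0877), and the block gave 10 and 9 there. Leaving out 1 library at a time gave 3 to 4 higher and 0 lower in LK-2, 1 higher and 4 to 5 lower in RERF-LC-AI, 0 positive and 3 to 5 negative differences, and 10 to 12 higher and 9 to 11 lower between control cells. No named keratin changed sign while called under any alternative, with 962 values on the same side of the threshold, 28 newly past it and 14 no longer past it. For keratins at a few counts per library, depth limits what could be seen.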
